A study of Homo sapiens with 6 samples.

Results

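The transcripts of the small RNA processing and Argonaute genes were examined in H660 (NCI-H660) cells, which derive from neuroendocrine prostate cancer (NEPC), with and without induction of a short hairpin RNA (shRNA) against MUC1. Genes were chosen by symbol, as the 10 genes DROSHA, DGCR8, XPO5, DICER1, TARBP2, PRKRA, AGO1, AGO2, AGO3 and AGO4, and all 10 were found among the 28008 symbols of the count table. DOX-negative cells received 0.1% DMSO as vehicle (n = 3) and DOX-positive cells received doxycycline (DOX) at 500 ng/ml (n = 3). By the series record and the study's methods, all cells carried the tetracycline-inducible MUC1shRNA vector and had been selected in puromycin. The sample labels do not name the vector, and their genotype and treatment fields read total RNA and wild-type, so groups were taken from the titles. No library of cells with a control hairpin given DOX was analysed here. The effects of DOX itself, of expressing any hairpin and of silencing MUC1 therefore cannot be told apart here. The labels state that cells were cultured in triplicate, and p values measure the spread between these cultures.

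An shRNA is made as a short hairpin that resembles a microRNA precursor, and it uses the same cellular machinery from the point of nuclear export. For a natural microRNA, the nuclease DROSHA and its RNA-binding partner DGCR8 first cut the hairpin out of a long transcript. A hairpin transcribed directly from an shRNA vector does not need that step. XPO5 (exportin-5) carries hairpins to the cytoplasm, where the nuclease DICER1 removes the loop with the aid of the double-stranded RNA-binding proteins TARBP2 and PRKRA. The resulting small RNA is loaded into an Argonaute protein, encoded by AGO1, AGO2, AGO3 or AGO4, and AGO2 is the member best known for cutting a perfectly matched target.

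Total counts ranged from 47620696 to 74061121 per library. MUC1 itself had a CPM (count normalized for library size) of 88.2, 90.2 and 79.6 without DOX against 36.7, 37.2 and 29.9 with DOX, and the fitted log2 fold change was -1.32 (SE 0.096, adjusted p = 0.00017, edgeR quasi-likelihood test with Benjamini-Hochberg adjustment). The neuroendocrine markers CHGA, CHGB, SYP, INSM1, NCAM1 and ENO2 had between 2344 and 14758 counts in every library. KLK3 and KLK2, markers of luminal prostate cells, had at most 1 count, and the fibroblast collagens COL1A1 and COL1A2 had between 347 and 1330 counts.

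None of the 10 genes passed the test in either direction (edgeR, adjusted p under 0.05). For comparison, the test called 829 of the 17026 genes (4.87%), with 2.91% of tested genes higher and 1.96% lower in DOX-positive cells. At an unadjusted p under 0.05, there were 2 of the 10 genes, AGO3 and PRKRA, against 21.1% of all tested genes. DESeq2 called 1 of the 10, AGO3, where it called 8.43% of the 16078 genes to which it gave an adjusted p. The DOX-positive and DOX-negative values did not overlap for 3 of the 10 (AGO3, PRKRA and AGO1), compared with 28.1% of all tested genes. Of the 10, 3 had a higher and 7 a lower fitted level with DOX, and their median log2 fold change was -0.027 against 0.00034 for all tested genes. The median size of the change, without regard to sign, was 0.068 on the log2 scale for the 10 genes and 0.13 for all tested genes. These sizes are not compared at equal precision. The median SE was 0.076 for the 10 and 0.105 for all tested genes, and the median of the mean counts was 5032 against 1125.

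These genes were sequenced deeply, with between 1283 and 37629 counts per gene and library, so the fits bound the changes closely. The 95% interval of the fold change lay within 1.3-fold in either direction for 8 of the 10 genes, and the outermost bounds over all 10 were 0.736-fold and 1.25-fold. In these bulk libraries, fewer cells that express a gene and less of its RNA per cell cannot be told apart.

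**Figure D1:**
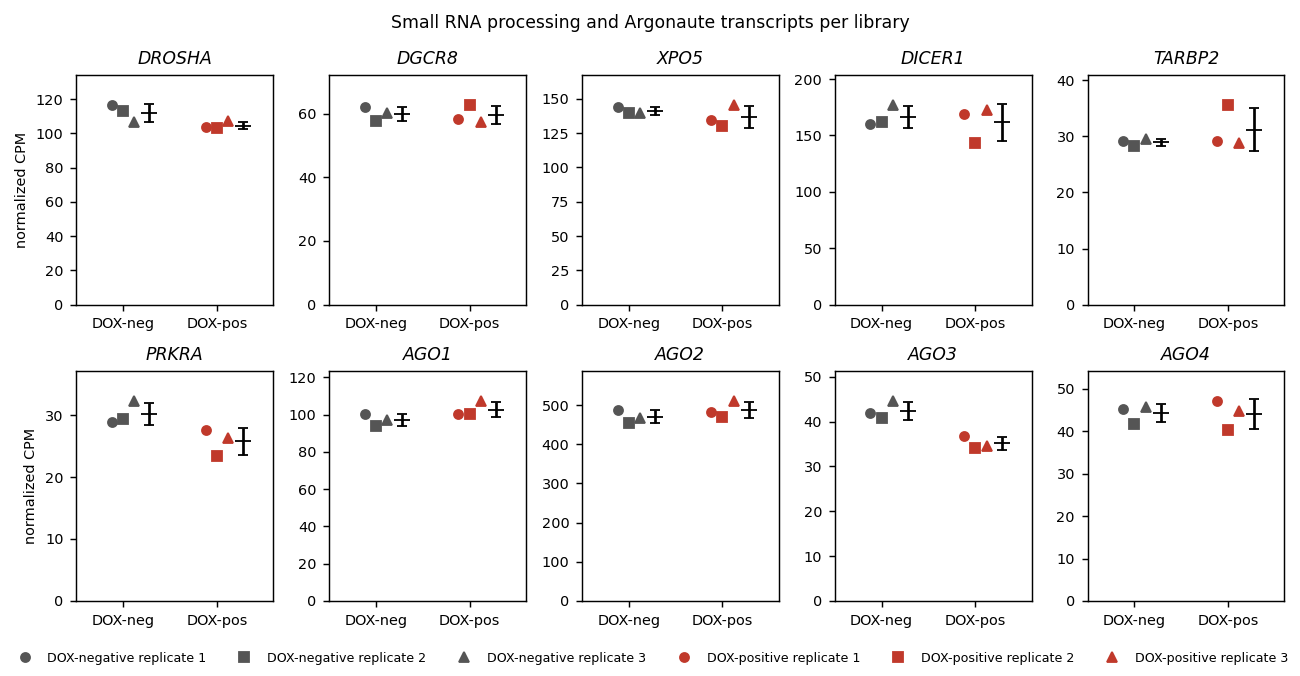
Normalized CPM (vertical axes, each starting at 0) of the 10 genes in each of the 3 DOX-negative (grey) and 3 DOX-positive (red) libraries, with symbol shapes for replicates 1, 2 and 3 and the group mean ± SD in black. The AGO3 and PRKRA points of the DOX-positive group lie below all DOX-negative points, the AGO1 points lie above them, and the groups overlap for the other genes.

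The nuclear step was examined first. DROSHA, the nuclease of the Microprocessor complex, was at 116.9, 113.1 and 106.5 CPM in DOX-negative replicates 1, 2 and 3 and at 103.9, 102.9 and 107.0 CPM in DOX-positive replicates 1, 2 and 3. The lowest DOX-negative value lay below the highest DOX-positive value, and the difference of -0.10 on the log2 scale (SE 0.070, 95% interval -0.25 to 0.052) did not pass the test (adjusted p = 0.454). DGCR8, which recognizes the hairpin for DROSHA, was at 62.1, 57.8 and 60.1 CPM without DOX and at 58.4, 62.9 and 57.4 CPM with DOX. The group means of DGCR8 were 59.99 ± 2.16 and 59.5 ± 2.93 CPM (SD, n = 3), with a log2 difference of -0.011 (95% interval -0.17 to 0.15, edgeR adjusted p = 0.953). The ratio of DROSHA to DGCR8 was taken in TPM (counts per transcript length, scaled to a common total). It ranged from 1.44 to 1.596 without DOX and from 1.335 to 1.52 with DOX, so the groups overlapped in this ratio of transcripts as well.

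DGCR8 RNA is itself a substrate of the Microprocessor, since its transcript holds 2 hairpins that are annotated as the microRNA genes MIR3618 and MIR1306. Their mature sequences, from RefSeq (GRCh38.p14), are shown because they are the products of a cut in a transcript of this set, with the seed (bases 2 to 8) in capitals.
hsa-miR-3618: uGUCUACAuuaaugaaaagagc
hsa-miR-1306-5p: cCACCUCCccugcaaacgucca
hsa-miR-1306-3p: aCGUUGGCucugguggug
The first lies on chr22:20085797-20085818 and the other 2 on chr22:20086072-20086093 and chr22:20086112-20086129, all on the plus strand within DGCR8 (chr22:20080241-20111872). MIR3618 and MIR1306 had 0 counts in all 6 libraries, where a count of 0 allows up to 3 counts per library and covers counting error only. Reads from this stretch of DGCR8 may have been given to DGCR8 or to no gene, since the counting rule is not given in the sources used here. Over the whole DGCR8 transcript, 11.3% of the stretches of 50 bases were shared with transcripts of other genes, mostly with an antisense transcript, so the DGCR8 value carries that limit.

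Export was next. XPO5, which exports precursor hairpins together with the GTPase RAN, was at 144.4, 139.4 and 139.6 CPM without DOX and at 134.3, 130.2 and 145.9 CPM with DOX. The highest of all 6 values belonged to DOX-positive replicate 3, and the groups overlapped. The log2 difference was -0.045 (SE 0.072, 95% interval -0.20 to 0.11, edgeR adjusted p = 0.773). Of the XPO5 transcript, 3.80% of stretches of 50 bases matched POLR1C on the opposite strand.

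At the cytoplasmic cut, DICER1 was at 159.8, 162.0 and 177.4 CPM without DOX and at 169.2, 143.1 and 172.2 CPM with DOX. DOX-positive replicate 2 was the lowest of the 6 and DOX-negative replicate 3 the highest, and the difference of -0.043 on the log2 scale had a 95% interval of -0.23 to 0.14 (edgeR adjusted p = 0.823). TARBP2, which stabilizes DICER1 and helps to load the small RNA, was at 29.1, 28.2 and 29.5 CPM without DOX and at 29.2, 35.7 and 28.8 CPM with DOX. Only DOX-positive replicate 2 was set apart, and the other 5 values of TARBP2 spanned 28.2 to 29.5 CPM. The TARBP2 difference of 0.11 (SE 0.096) did not pass the test (edgeR adjusted p = 0.568), and it was 0.0055 without that library.

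PRKRA, also known as PACT, binds DICER1 and is also an activator of the double-stranded RNA-dependent kinase PKR. PRKRA was at 28.9, 29.4 and 32.3 CPM without DOX and at 27.6, 23.3 and 26.3 CPM with DOX. All DOX-positive values lay below all DOX-negative values, with means of 30.2 ± 1.84 and 25.8 ± 2.20 CPM (SD, n = 3). The log2 difference was -0.23 (SE 0.091, 95% interval -0.43 to -0.029), with an unadjusted p of 0.028 and an adjusted p of 0.177 by edgeR. An exact two-sided permutation test of the 6 values gave p = 0.10, the smallest that 3 libraries against 3 allow. Set against DICER1 within each library, the TPM ratio of PRKRA was 0.907, 0.911 and 0.913 without DOX and 0.820, 0.819 and 0.766 with DOX. The ratio needs no scaling between libraries and is given as a description.

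Among the Argonautes, AGO2 had the most counts and was at 487.5, 454.6 and 467.5 CPM without DOX and at 482.3, 469.6 and 510.4 CPM with DOX. The groups overlapped, and the log2 difference was 0.053 (SE 0.071, 95% interval -0.10 to 0.21, edgeR adjusted p = 0.726). AGO4 was at 45.3, 41.8 and 45.7 CPM without DOX and at 47.1, 40.3 and 44.9 CPM with DOX, a log2 difference of -0.0049 (95% interval -0.19 to 0.18, edgeR adjusted p = 0.983). AGO1 was at 100.2, 94.0 and 97.1 CPM without DOX and at 100.5, 100.5 and 107.4 CPM with DOX. The AGO1 groups did not overlap, but by a narrow margin (100.2 against 100.5 CPM), and the log2 difference of 0.082 (SE 0.070) did not pass the test (edgeR adjusted p = 0.552).

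AGO3 binds small RNAs like the other Argonautes and was the gene nearest to a call. Its level was 41.8, 40.8 and 44.6 CPM in DOX-negative replicates 1, 2 and 3 and 36.9, 34.1 and 34.4 CPM in DOX-positive replicates 1, 2 and 3. The 3 DOX-positive values all lay below the lowest DOX-negative value, with means of 42.4 ± 1.97 and 35.1 ± 1.499 CPM (SD, n = 3). The fitted fold was 0.829 (95% interval 0.736 to 0.933), or -0.27 on the log2 scale (SE 0.079). The unadjusted p was 0.0049 and the adjusted p was 0.070 by edgeR, which misses the threshold, while DESeq2 gave an adjusted p of 0.026. The exact two-sided permutation p for AGO3 was 0.10, the smallest possible. Changes larger than that of AGO3 in either direction were fitted for 24.1% of all tested genes.

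**Figure D2:**
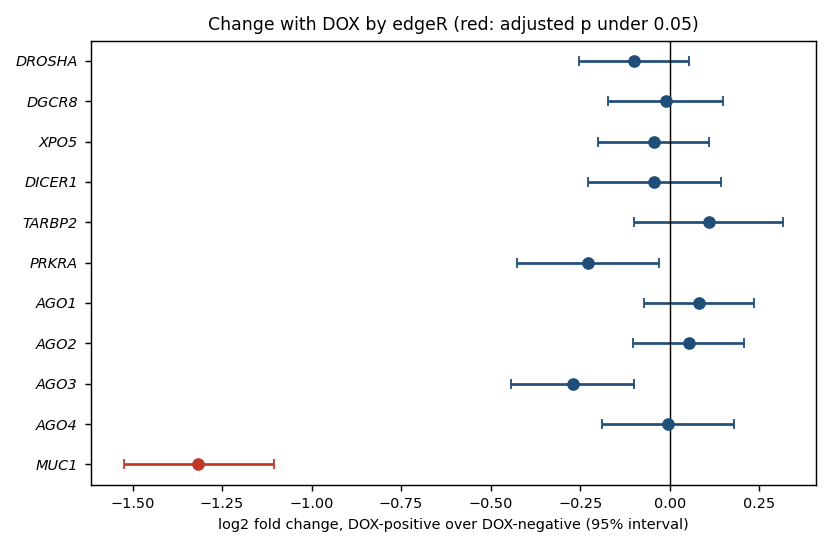
Log2 fold change of DOX-positive over DOX-negative cells (horizontal axis) from the edgeR fit for the 10 genes and for MUC1, with 95% intervals as bars and adjusted p under 0.05 in red. The intervals of AGO3 (-0.44 to -0.099) and PRKRA (-0.43 to -0.029) exclude 0 without adjustment, those of the other 8 genes include it, and MUC1 alone is red.

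The relative make-up of the Argonaute transcripts was then compared within each library, as the share of each gene in the summed TPM of AGO1 to AGO4. AGO3 made up 18.3%, 19.0% and 19.8% of this sum in the DOX-negative libraries and 16.5%, 15.9% and 14.99% in the DOX-positive libraries. The means for AGO3 were 19.0 ± 0.749% and 15.8 ± 0.763% (SD, n = 3), a difference of -3.22 percentage points that ranged from -3.59 to -2.82 when each library was left out in turn. AGO2 held 51.4%, 51.0% and 50.03% without DOX and 52.0%, 52.9% and 53.5% with DOX, and AGO1 held 20.5%, 20.4% and 20.1% without DOX and 21.0%, 21.9% and 21.8% with DOX. The shares of AGO4 overlapped, at 9.63% to 10.0% without DOX and 9.32% to 10.5% with DOX. Shares sum to a fixed total, so a lower share of one gene raises the others, and no test was made on them.

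**Figure D3:**
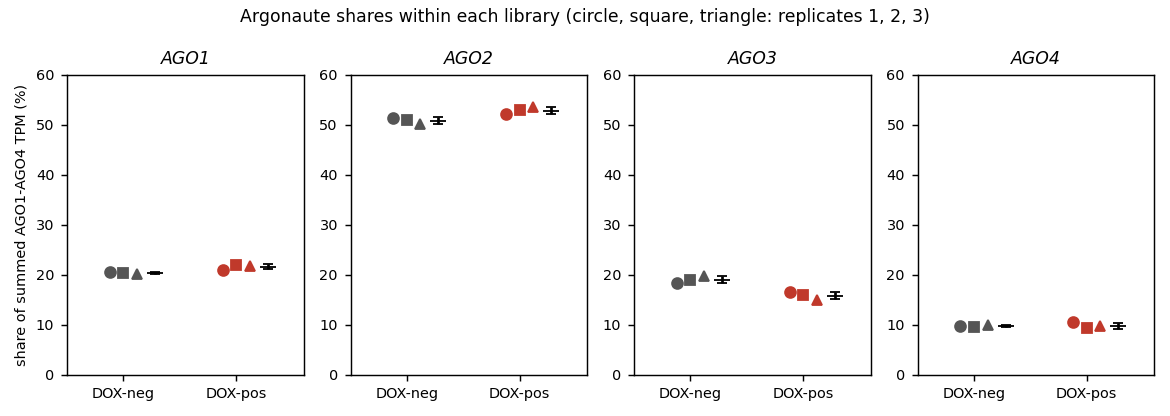
Share of AGO1, AGO2, AGO3 and AGO4 in their summed TPM (percent, vertical axis from 0) in each of the 3 DOX-negative (grey) and 3 DOX-positive (red) libraries, with the group mean ± SD in black. The AGO3 shares lie between 18.3% and 19.8% without DOX and between 14.99% and 16.5% with DOX, and the AGO4 shares overlap.

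AGO4, AGO1 and AGO3 lie in this order on the plus strand of chromosome 1 (GRCh38.p14), at chr1:35807636-35857890, chr1:35869761-35930532 and chr1:35930718-36072500. Between the annotated end of AGO1 and the start of AGO3 lie 185 bases, and between AGO4 and AGO1 11870 bases. The fitted log2 differences of these neighbours were 0.082 for AGO1 and -0.27 for AGO3, and the TPM ratio of AGO3 to AGO1 was 0.895, 0.930 and 0.984 without DOX and 0.786, 0.728 and 0.687 with DOX. In the longest coding transcripts, 0% of the stretches of 50 bases of one Argonaute were shared with another, so reads of this length could be told apart between them. Of the AGO3 transcript, 2.02% of such stretches occurred in transcripts of other genes. The other genes of the set lie on separate chromosomes from this cluster, with DROSHA at chr5:31400494-31532093, XPO5 at chr6:43522334-43576038, DICER1 at chr14:95086228-95158010 and PRKRA at chr2:178431414-178451175, all on the minus strand, and TARBP2 at chr12:53500923-53506431 on the plus strand.

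Levels between genes were compared in TPM, which allows for transcript length. AGO2 was the highest, at 14.1 to 21.8 TPM over the 6 libraries, followed by XPO5 (10.5 to 16.4 TPM), DROSHA (8.34 to 12.7 TPM), TARBP2 (7.30 to 10.5 TPM) and DICER1 (5.84 to 10.4 TPM). DGCR8 (6.17 to 8.74 TPM), AGO1 (5.83 to 8.80 TPM), PRKRA (4.78 to 8.54 TPM), AGO3 (4.25 to 6.92 TPM) and AGO4 (2.48 to 4.38 TPM) were lower. The ranges of all neighbours in this order overlapped. Within single libraries, AGO2 was above XPO5, XPO5 above DROSHA, PRKRA above AGO3 and AGO3 above AGO4 in 6 of 6 libraries, whereas AGO1 was above PRKRA in 3 of 6. TPM values are low throughout because protein-coding genes held only 16.1% to 23.9% of all TPM, while the noncoding RN7SK alone held 21.2% to 27.1%. Rescaled over protein-coding genes, AGO2 was at 88.1 ± 3.70 TPM without DOX and 91.7 ± 7.12 TPM with DOX, AGO3 was at 33.0 ± 2.34 and 27.4 ± 1.68 TPM, and PRKRA was at 38.7 ± 3.31 and 33.1 ± 3.75 TPM (SD, n = 3).

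The wider pathway was described with lists of genes around each step. Among 22 tested of 23 listed cofactors of cleavage, export and hairpin editing, including the helicases DDX5 and DDX17 and the export factors RAN and RCC1, 7 were higher and 15 lower with DOX and 0 were called in edgeR, against 4.87% of all tested genes. At an unadjusted p under 0.05 there were 3 of the 22, against 21.1% of all tested genes, and the list median was -0.071 on the log2 scale. The DOX-positive and DOX-negative values did not overlap for 12 of the 22, against 28.1% of all tested genes. All 22 listed genes of loading and small RNA turnover were tested, of which 5 were higher and 17 lower, with a median of -0.052, and 1 was called, where 4.87% of all tested genes were. Leaving out DOX-positive replicate 2 brought this median to -0.0014, and leaving out replicate 3 of that group brought it to -0.106. The terminal uridylyltransferases TUT4 and TUT7, which mark precursor hairpins and are listed in the table under the older symbols ZCCHC11 and ZCCHC6, had log2 differences of -0.022 and 0.051 (edgeR adjusted p = 0.929 and 0.787) and were looked up after other values had been seen.

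The 30 listed effectors, which act after an Argonaute has found its target, split into 16 higher and 14 lower, with a median of 0.016, and 1 was called in each direction, against 2.91% of all tested genes called higher and 1.96% called lower. At an unadjusted p under 0.05 there were 11 of the 30, against 21.1% of all tested genes. CNOT6, a deadenylase of the CCR4-NOT complex that shortens poly(A) tails, fell from 148.0 ± 5.90 to 113.3 ± 14.8 CPM (SD, n = 3), to 0.766 of its level on the fitted scale (log2 fold change -0.38, SE 0.094, edgeR adjusted p = 0.038). Its values were 141.2, 151.4 and 151.4 CPM without DOX and 121.8, 96.3 and 121.9 CPM with DOX. Without DOX-positive replicate 2, the lowest, the log2 fold change was -0.28. MOV10, an RNA helicase that associates with Argonautes, rose from 55.6 ± 1.98 to 69.5 ± 6.47 CPM (log2 fold change 0.32, SE 0.083, edgeR adjusted p = 0.049). Its values were 57.3, 53.5 and 56.1 CPM without DOX and 63.4, 76.3 and 68.7 CPM with DOX. Without DOX-positive replicate 2, the highest, the log2 fold change was 0.25. The MOV10 call was lost in 16 of 22 alternative fits and that of CNOT6 in 8 of 22. Leaving out DOX-negative replicate 1, 2 or 3 ended both calls (adjusted p 0.052, 0.150 and 0.167 for CNOT6), and leaving out DOX-positive replicate 2 or 3 also ended that of MOV10. The 3 TNRC6 genes, scaffolds that join Argonautes to the deadenylases, were looked up after the other values had been seen. Their log2 differences were -0.16 for TNRC6A (edgeR adjusted p = 0.217), 0.071 for TNRC6B (adjusted p = 0.606) and -0.24 for TNRC6C (adjusted p = 0.079). For TNRC6C the groups did not overlap and DESeq2 gave an adjusted p of 0.039.

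In the loading and turnover list the called gene was TRIM71, an RNA-binding protein of early development and a textbook target of the let-7 microRNAs. It had 50, 38 and 37 counts without DOX and 85, 69 and 141 counts with DOX. All DOX-positive values were above all DOX-negative values, and the log2 fold change was 0.99 (SE 0.24, edgeR adjusted p = 0.036). The level was low, at 0.725 ± 0.0956 and 1.43 ± 0.422 CPM (SD, n = 3). Of the 22 alternatives, 19 gave TRIM71 an adjusted p. The call was lost in 6 of these 19, including those without DOX-negative replicate 1, 2 or 3. The edgeR change was 0.71 (adjusted p = 0.122) without DOX-positive replicate 3, the library with the most TRIM71 counts. The PIWI pathway, which silences transposons in the germline, was tested for 9 of 16 listed genes, of which 4 were higher and 5 lower and 1 was called, against 4.87% of all tested genes. TDRD9, a helicase of that pathway, was called lower, with 17, 17 and 12 counts without DOX and 9, 4 and 5 with DOX (log2 fold change -1.57, SE 0.39, edgeR adjusted p = 0.041). However, the gene overlaps RD3L and the counts are few. Of the 22 alternatives, 17 gave TDRD9 an adjusted p, and DESeq2 did not. The call was lost in 6 of these 17, including those without DOX-negative replicate 1, 2 or 3 or DOX-positive replicate 2 or 3.

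**Figure D4:**
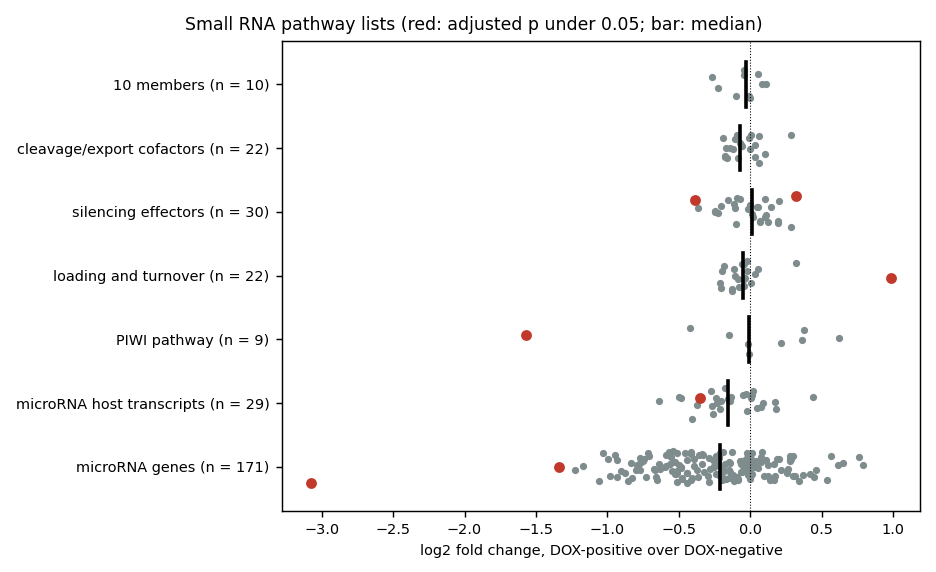
Log2 fold change of DOX-positive over DOX-negative cells (horizontal axis) for each tested gene of the 10-gene set and of 6 lists around it, with 1 point per gene, a black bar at each list's median and adjusted p under 0.05 in red. The red points are CNOT6 and MOV10 among the effectors, TRIM71, TDRD9, MIR600HG and the microRNA genes MIR4788 and MIRLET7D, and the 10 genes have none.

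Primary microRNA transcripts are the substrates of DROSHA and DGCR8. Of 59 host transcripts with symbols of the form MIR…HG, 29 were tested, 9 were higher and 20 lower, and the median log2 fold change was -0.16. Without DOX-positive replicate 3 this median was -0.067. In fits of filtered log2 TPM it was 0.026 and 0.028, but over only 10 host transcripts, so the sets compared differ. Of the 29, 1 was called, against 4.87% of all tested genes. It was MIR600HG, which lies within the protein-coding gene STRBP and fell from 29.1 ± 1.35 to 22.8 ± 0.450 CPM (SD, n = 3; log2 fold change -0.35, SE 0.080, edgeR adjusted p = 0.031). The MIR600HG call was lost in 8 of the 20 alternatives that gave it an adjusted p, including without any library other than DOX-positive replicate 2. STRBP, looked up because of this overlap, differed by -0.15 (adjusted p = 0.277). Of 1878 microRNA genes, 928 had 0 counts in every library and 171 were tested, 45 higher and 126 lower with a median of -0.21. For 153 of these 171 the mean was under 50 counts, and the median was -0.071 over those with a mean of at least 50. Over the microRNA genes tested in each fit, the median was -0.099 without DOX-negative replicate 3 (193 genes) and -0.37 without DOX-negative replicate 1 (196 genes). Per the labels the libraries were made with an mRNA kit, although RN7SK, which lacks a poly(A) tail, held at least 21.2% of TPM, so the library type is uncertain, and these counts are taken as reads over the hairpin locus and not as levels of mature microRNAs.

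Of the 171 microRNA genes 2 were called, against 4.87% of all tested genes, and both were lower with DOX. MIR4788 had 11, 14 and 13 counts without DOX and 2, 1 and 2 with DOX, a ratio of 0.112 in summed counts per library size (exact 95% interval 0.0343 to 0.284, for counting error only, edgeR adjusted p = 0.010), and it overlaps the pseudogene HMGB3P13. MIRLET7D had 29, 32 and 40 counts without DOX and 22, 9 and 17 with DOX (log2 fold change -1.34, SE 0.33, edgeR adjusted p = 0.041), and it overlaps long noncoding transcripts, among them LINC02603. Without DOX-negative replicate 3 both calls were lost (adjusted p 0.071 for MIR4788 and 0.174 for MIRLET7D), and that of MIRLET7D also without DOX-negative replicate 2 or DOX-positive replicate 2 or 3. Of the 22 alternatives, 15 gave MIR4788 and 16 gave MIRLET7D an adjusted p, and DESeq2 gave none for MIR4788. Neighbouring hairpins of the same let-7 cluster were not called, with -0.996 for MIRLET7A1 (edgeR adjusted p = 0.215) and -0.29 for MIRLET7F1 (edgeR adjusted p = 0.748). MIRLET7I, a let-7 hairpin on chromosome 12, was not lower, with 0.076 (edgeR adjusted p = 0.937). These hairpins were looked up after other values had been seen. The mature products of the called loci are shown from RefSeq (GRCh38.p14) with the seed in capitals.
hsa-miR-4788: uUACGGACcagcuaagggaggc
hsa-let-7d-5p: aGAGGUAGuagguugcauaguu
hsa-let-7d-3p: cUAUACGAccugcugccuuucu
They lie on the plus strand at chr3:134437836-134437857, chr9:94178841-94178862 and chr9:94178895-94178916.

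The seed match of let-7 (CTACCTC, sense strand) was searched in the 3′ untranslated region (UTR) of the longest coding transcript of each gene, since let-7 precursors pass through this machinery. It occurred in 9.51% of 19046 genes with a 3′ UTR. TRIM71, which is not among the 10 genes, was added to the search and was called higher in these data, so its matches are only a description. It held 6 matches, where 28.6% of UTRs within 20% of its length held at least 1 match. Among the 10 genes, TARBP2, AGO1 and AGO3 held 1 each and AGO2 held 2, and DROSHA, DGCR8, XPO5, DICER1, PRKRA and AGO4 held none. The Argonaute UTRs are long, and a match occurred in 46.5% of UTRs within 20% of the length of that of AGO1. It occurred in 49.3% of those near AGO2 and 52.1% of those near AGO3, against 2.37% of those near TARBP2. The matches of TARBP2, AGO1 and AGO3 are shown in windows of 26 bases with the match in capitals, and those of AGO2 are not shown.
TARBP2: ctgtgggtgccatctCTACCTCtgac
AGO1: ttctccttattcctcCTACCTCccgc
AGO3: aatacctgtcctcacCTACCTCacta
The 3 genes with these windows had fitted log2 differences of 0.11, 0.082 and -0.27, and AGO2 had 0.053, none of them called by edgeR. A match is a stretch of letters and not a measured site.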

How the data were processed

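RNA-seq counts and TPM were analysed for 3 DOX-negative and 3 DOX-positive H660 cultures, grouped by their titles. Per the labels, RNA was column-purified and libraries were made with a stranded mRNA kit. Raw counts per gene symbol were deposited by the authors, and the submitters' processing notes name STAR, DESeq2 and GRCh38/hg38. Versions, the annotation, the counting rule and the strand setting are not given in the sources used here. The deposited TPM values covered 25673 of the 28008 symbols. All columns were matched to samples by name. The depth of 47620696 to 74061121 counts limits precision mainly for genes of few counts, and intervals on counts cover counting error only.

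Counts were tested with edgeR 4.0.16 (filterByExpr, TMM factors of 0.967 to 1.03, glmQLFit with robust estimation and glmQLFTest, R 4.3.3) on all 17026 tested genes, with Benjamini-Hochberg adjustment and a threshold of 0.05. The common dispersion was 0.00917 (biological coefficient of variation 9.58%). SE and 95% intervals were derived from the F statistic. Normalized CPM use the TMM factors. Permutation tests were exact and two-sided, and scripts were tested on simulated data.

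The 10 genes and the lists of pathway genes were chosen with earlier results of these data known. From each list the called genes with the largest change were named, up to 4. TUT4, TUT7 and TENT2 were matched through RefSeq synonyms. The alternatives tried were DESeq2 1.42.0, limma-voom, other scaling (RLE, upper-quartile, none), count filters that were stricter (a mean of 50 counts) or absent, limma-trend on log2 TPM (limma 3.58.1, pseudocounts of 1 and 0.1, with and without a minimum mean TPM of 1), no robust estimation, a replicate block, a length correction, protein-coding genes only, and leaving out each library. GC with length correction and rescaled TPM were added after seeing the data. Gene positions and mature microRNAs came from RefSeq (GRCh38.p14) and transcripts from GENCODE.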

Additional observations from a re-analysis of the deposited data

How the results depend on the processing

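Against 829 genes called in the edgeR analysis, DESeq2 called 1355, removal of GC and length trends 2075, rescaled TPM 377, and limma-trend 31 (pseudocount 1), 35 (pseudocount 0.1) and 11 (pseudocount 1, no filter), and leaving out 1 library gave 58 (without DOX-negative replicate 3) to 1035. The cause of these differences was not tested. Of the 10 genes, DESeq2 called 1 and the other 21 alternatives called 0. AGO3 was lower with DOX in all 22 alternatives (-0.31 to -0.21 on the log2 scale, adjusted p 0.026 to 1.0) and PRKRA likewise (-0.28 to -0.16, adjusted p 0.061 to 1.0). MUC1 was -1.22 (adjusted p = 0.107) in limma-trend on log2(TPM + 1) with no filter, and was called in the other 21. DGCR8, AGO4 and DICER1 changed sign around 0. DGCR8 was 0.011 with log2(TPM + 1), filtered or not, 0.012 with log2(TPM + 0.1), and 0.015, 0.0031 and 0.015 without DOX-negative replicate 1, DOX-positive replicate 1 and DOX-positive replicate 3 (-0.049 to 0.015 over all libraries left out). AGO4 was 0.018, 0.016 and 0.018 in the TPM fits, 0.0087 with the length trend removed, 0.023 with GC and length trends removed, and 0.013, 0.013 and 0.058 without DOX-negative replicate 1, DOX-negative replicate 3 and DOX-positive replicate 2 (-0.055 to 0.058 over all). DICER1 was 0.036 with GC and length trends removed, and 0.00059 and 0.040 without DOX-negative replicate 3 and DOX-positive replicate 2 (-0.091 to 0.040 over all).

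List medians also moved. The PIWI median of -0.0059 over 9 genes became -0.081 with no count filter and -0.104 in DESeq2, both over 14 genes. It was 0.0082 on filtered log2(TPM + 1), over only 4 genes. For protein-coding genes only it was -0.024, and with GC and length trends removed 0.023. It ranged from -0.043 to 0.099 without 1 library. The microRNA genes, 171 in the main fit, went to -0.071 over the 18 with a mean of at least 50 counts. On unfiltered log2(TPM + 1) their median was -0.0028, over only 17 genes. It ranged from -0.37 to -0.099 without 1 library, and there was no value on protein-coding genes. The loading and turnover list ranged from -0.106 to -0.0014 without 1 library. The cofactors were at -0.039, -0.040 and -0.034 in the 3 TPM fits, over 20, 20 and 23 genes. The host transcripts were at 0.026, 0.028 and -0.0070 there, over 10, 10 and 46 transcripts against 29 in the main fit. Without 1 library the host transcripts ranged from -0.18 to -0.067.

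Replicate numbers did not pair the libraries: correlations of same-numbered deviations were -0.56, 0.022 and -0.077 over 14588 genes. The replicate block gave 998 calls, shared 750 with the unblocked fit and included 0 of the 10 genes, and AGO3 had an adjusted p of 0.105.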
